A study of Rattus norvegicus with 6 samples.

Results

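The glomerular basement membrane genes described here are COL4A1, COL4A2, COL4A3, LAMA5, LAMB1, LAMB2, LAMC1, NID1, AGRN and HSPG2. Members were the gene IDs that carry 1 of these 10 symbols in the authors' deposited comparison tables, which list human symbols for rat genes. COL4A3 is carried by 2 IDs, which gave 11 of the 26319 gene IDs in the count table, and all 11 passed the filter on low counts.

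Libraries of messenger RNA were made from isolated rat glomeruli, the capillary tufts in which the kidney filters blood, and 6 were sequenced, in 3 groups of 2 and all from the strain Sprague Dawley. AT1R Tg AC1903 rats carried a transgene for the type 1 receptor of angiotensin II (AT1R), were given AC1903, which blocks the cation channel TRPC5, and were 23.0 and 20.4 weeks old. AT1R Tg vehicle rats carried the same transgene, received vehicle and were 20.4 and 17.4 weeks old. WT rats lacked the transgene, also received vehicle and were 20.4 and 21.9 weeks old. The ages differ within each group, so the 2 libraries of a group came from different rats. The labels do not give the dose or length of the treatment, the sex of the rats or the promoter of the transgene, nor whether a library stands for 1 rat or for pooled rats. The AC1903 comparison asks what the inhibitor did in transgenic rats, and the vehicle comparison what the transgene did. Both use the same AT1R Tg vehicle libraries, so their values are not independent.

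The glomerular basement membrane is the matrix sheet between the fenestrated endothelium and the podocytes, and both cell types secrete it. It is woven from a network of type IV collagen and a network of laminin, which nidogen and heparan sulfate proteoglycans link to each other. During development the COL4A1 and COL4A2 chains and the LAMB1 chain are laid down early, and networks with COL4A3 and LAMB2 largely replace them as the glomerulus matures. Loss of COL4A3 causes Alport syndrome and loss of LAMB2 causes Pierson syndrome, both with leakage of protein into the urine.

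A library held 12325515 to 36026772 expected counts in all, and both WT libraries were deeper than the 4 AT1R Tg libraries. Levels are given as CPM, counts scaled to a common library size, with TMM factors, edgeR's correction for what the library is made of. A gene is said to be called where its adjusted p is under 0.05. They are not divided by gene length, so a level is compared between libraries and not between genes. The podocyte marker NPHS1, which encodes nephrin of the slit diaphragm, ran from 1271 to 2361 CPM over the 6 libraries. The endothelial marker KDR, a receptor for vascular endothelial growth factor, ran from 1230 to 1849 CPM. The defining markers of the labelled tissue were thus present in every library. Markers of the proximal tubule, a neighbouring part of the kidney, were present as well, and their values stand beside the results they move with.

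COL4A1 and COL4A2 encode the chains of the ubiquitous type IV collagen network, and their genes lie head to head. In the RefSeq promoter table for the assembly GRCr8, 76 bases separate their starts at chr16:84885521-84885596. This stretch is shown because the pair is transcribed outwards from it and their counts are set against each other here. It reads as follows on the plus strand, on which COL4A1 is read to the right and COL4A2 to the left, and capitals mark a GC box, searched as GGGCGG on both strands.
COL4A1 and COL4A2, between the starts: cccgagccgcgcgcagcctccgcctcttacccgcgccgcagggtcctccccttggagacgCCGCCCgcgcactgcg
The GC box is a motif found in many promoters, and 18.1% of the 33469 promoters in the table held it in the 76 bases before the start. Both strands were also searched for 3 further motifs, none of which matched in the 76 bases. The CCAAT box is spelled by its name and was in 13.0% of promoters. The TATA box was searched as TATAAA, found in 4.61%. The AP-1 motif, which binds the FOS and JUN factors, was searched as TGANTCA and was in 1.80%.

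COL4A1 was at 517 and 474 CPM in AT1R Tg AC1903, 541 and 416 CPM in AT1R Tg vehicle and 467 and 445 CPM in WT. The lowest and the highest of the 6 values were both AT1R Tg vehicle libraries, and that group overlapped each of the others. COL4A2 was at 201 and 194 CPM in AT1R Tg AC1903, 249 and 175 CPM in AT1R Tg vehicle and 193 and 157 CPM in WT. Replicate 1 of AT1R Tg vehicle was again the highest library. The counts of COL4A1 stood to those of COL4A2 as 2.57 and 2.45 in AT1R Tg AC1903, 2.17 and 2.38 in AT1R Tg vehicle, against 2.42 and 2.83 in WT. The ratio was lower in both AT1R Tg vehicle libraries than in the other 4, with a log2 difference of -0.21 between AT1R Tg vehicle and WT, a description with no test. In AT1R Tg vehicle against WT the log2 fold change was 0.07 for COL4A1 (95% interval -0.37 to 0.51) and 0.28 for COL4A2 (95% interval -0.19 to 0.75), and neither passed edgeR's quasi-likelihood test (adjusted p 0.930 and 0.666). With AC1903 the log2 fold change against AT1R Tg vehicle was 0.05 for COL4A1 and -0.10 for COL4A2, and against WT it was 0.12 and 0.18, with edgeR adjusted p from 0.783 to 0.952.

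COL4A3 encodes a chain of the mature network, which podocytes make. Its main ID, ENSRNOG00000015365, was at 360 and 458 CPM in AT1R Tg AC1903, 479 and 234 CPM in AT1R Tg vehicle and 348 and 182 CPM in WT. Both AT1R Tg AC1903 libraries were above both WT libraries, and AT1R Tg vehicle overlapped each of the other groups. The second ID, ENSRNOG00000046521, was at 33.3 and 38.9 CPM in AT1R Tg AC1903, 36.2 and 21.1 CPM in AT1R Tg vehicle and 32.5 and 26.0 CPM in WT. The estimated counts of the 2 IDs have decimals in all 6 libraries and sum to whole numbers in all 6, so reads were divided between them and each value alone is uncertain. With both IDs summed, COL4A3 was at 393 and 497 CPM in AT1R Tg AC1903, 515 and 255 CPM in AT1R Tg vehicle and 381 and 208 CPM in WT. Summing was chosen after seeing the data. The log2 fold change of the sum was 0.60 ± 0.37 (SE) in AT1R Tg AC1903 against WT and 0.39 ± 0.37 in AT1R Tg vehicle against WT, and neither passed edgeR's test (adjusted p 0.574 and 0.752, n = 2 libraries per group). It was 0.21 ± 0.37 in AT1R Tg AC1903 against AT1R Tg vehicle (edgeR adjusted p 0.892).

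COL4A3 moved between the 2 libraries of a group in the same direction as the podocyte markers did. The summed CPM of the 14 podocyte markers measured was 9322 and 12169 in AT1R Tg AC1903, 14849 and 7897 in AT1R Tg vehicle, against 13961 and 11740 in WT, and no marker was at 0 in any library. In every group the library with the higher podocyte sum also had the higher COL4A3 level. Relative to that sum, and with the WT mean set to 0, COL4A3 was at 0.94 and 0.89 on the log2 scale in AT1R Tg AC1903, 0.66 and 0.56 in AT1R Tg vehicle, against 0.31 and -0.31 in WT. All 4 AT1R Tg libraries were above both WT libraries on this scale, a description with no test. Fewer cells of a type and less RNA per cell cannot be told apart in RNA of whole glomeruli.

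**Figure D1:**
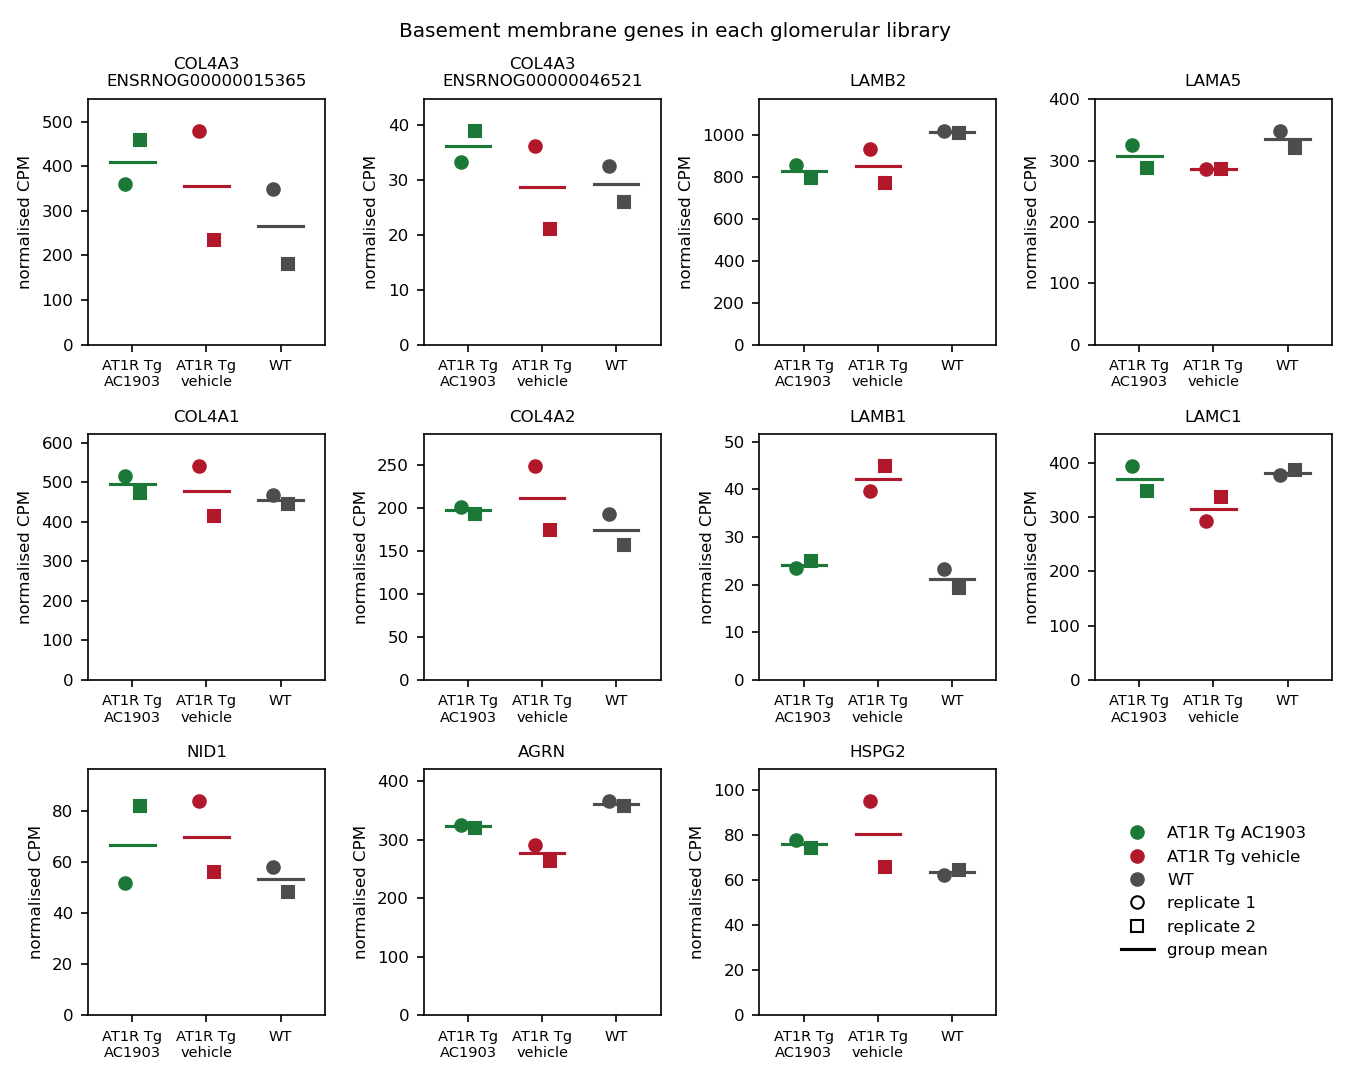
Level of each basement membrane gene in normalised CPM (y axes, from 0) in AT1R Tg AC1903, AT1R Tg vehicle and WT libraries, with circles for replicate 1, squares for replicate 2 and a bar for the group mean. LAMB1 is near 40 CPM or above it in both AT1R Tg vehicle libraries (39.6 and 44.8 CPM) and under 25 CPM in the other 4, and AGRN is lowest in AT1R Tg vehicle (291 and 264 CPM) without overlap.

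Laminins are cross-shaped trimers of an alpha, a beta and a gamma chain, and the glomerular trimers share LAMC1. LAMA5, the alpha chain of the mature basement membrane, was at 325 and 288 CPM in AT1R Tg AC1903, 286 and 287 CPM in AT1R Tg vehicle and 348 and 321 CPM in WT. Both AT1R Tg vehicle libraries were below all other libraries, with a log2 fold change against WT of -0.22 (95% interval -0.60 to 0.15, edgeR adjusted p 0.660). LAMC1, the gamma chain, was at 393 and 348 CPM in AT1R Tg AC1903, 293 and 337 CPM in AT1R Tg vehicle and 377 and 386 CPM in WT. It too was lowest in the AT1R Tg vehicle libraries, by -0.27 against WT (95% interval -0.67 to 0.12, edgeR adjusted p 0.598). Set against AT1R Tg vehicle, AT1R Tg AC1903 was higher in both libraries by 0.10 for LAMA5 (95% interval -0.28 to 0.47) and by 0.23 for LAMC1 (95% interval -0.16 to 0.63), and neither passed edgeR's test (adjusted p 0.884 and 0.710).

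LAMB2, the beta chain of the mature basement membrane, was at 856 and 794 CPM in AT1R Tg AC1903, 932 and 769 CPM in AT1R Tg vehicle and 1017 and 1005 CPM in WT. The 4 AT1R Tg libraries were all below both WT libraries. The log2 fold change was -0.29 in AT1R Tg AC1903 against WT (95% interval -0.74 to 0.16) and -0.25 in AT1R Tg vehicle against WT (95% interval -0.70 to 0.20), and neither passed edgeR's test (adjusted p 0.603 and 0.686). Between AT1R Tg AC1903 and AT1R Tg vehicle it was -0.04 (95% interval -0.49 to 0.41), and those groups overlapped.

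LAMB1, the early beta chain, had the largest fold change of the 11 IDs in AT1R Tg vehicle against WT and in AT1R Tg AC1903 against AT1R Tg vehicle. The 250 bases before its start in the RefSeq promoter table for GRCr8, chr6:53562846-53563095 on the plus strand, are shown for that reason, with matches to the GC box in capitals. The annotated start of the gene lies 247 bases before the start used here.
LAMB1, before the start: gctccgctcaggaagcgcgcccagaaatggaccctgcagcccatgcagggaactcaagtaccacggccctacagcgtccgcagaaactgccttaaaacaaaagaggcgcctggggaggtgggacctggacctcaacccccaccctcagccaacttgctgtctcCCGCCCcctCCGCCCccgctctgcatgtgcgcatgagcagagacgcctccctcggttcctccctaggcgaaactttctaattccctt
GGGCGG matched 2 times, on the minus strand, and 30.5% of the 33469 promoters hold at least 1 match in a stretch of this length. The other 3 motifs gave no match on either strand, and 34.0%, 12.9% and 6.34% of promoters held the CCAAT box, the TATA box and the AP-1 motif in a stretch of this length.

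LAMB1 was at 23.4 and 24.9 CPM in AT1R Tg AC1903, 39.6 and 44.8 CPM in AT1R Tg vehicle and 23.2 and 19.2 CPM in WT. Both AT1R Tg vehicle libraries were above all 4 others. AT1R Tg AC1903 lay next to WT without overlapping it, at 23.4 against 23.2 CPM where they were closest. In every group the younger library had the higher LAMB1 level, and AT1R Tg vehicle held the youngest, at 17.4 weeks and 44.8 CPM. At 20.4 weeks LAMB1 was at 24.9 CPM in AT1R Tg AC1903, 39.6 CPM in AT1R Tg vehicle and 23.2 CPM in WT. The part of age in the LAMB1 result was not tested on its own. A fit with age as a covariate was among the alternatives that did not leave out a single library. Over these the LAMB1 log2 fold change in AT1R Tg vehicle against WT ran from 0.77 to 1.03. The level averaged 42.2 ± 3.69 CPM in AT1R Tg vehicle and 21.2 ± 2.83 CPM in WT (SD, n = 2 each), a log2 fold change of 0.99 ± 0.18 (SE). This ranked number 40 by p of the 13426 genes tested but did not pass edgeR's quasi-likelihood test after adjustment (adjusted p 0.146, unadjusted p 0.000434). DESeq2 gave an adjusted p of 0.00113 and limma-voom one of 0.110. In the authors' deposited table the log2 fold change was 1.02 with an adjusted p of 0.00112.

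With AC1903 the LAMB1 level averaged 24.2 ± 1.11 CPM, against 42.2 ± 3.69 CPM in AT1R Tg vehicle (SD, n = 2 each), a log2 fold change of -0.81 ± 0.18 (SE). The difference did not pass edgeR's test (adjusted p 0.538), and DESeq2 gave an adjusted p of 0.0629. The authors' deposited table lists -0.81 with an adjusted p of 0.264. In AT1R Tg AC1903 against WT the log2 fold change was 0.19 (95% interval -0.22 to 0.60, edgeR adjusted p 0.722), so the interval between these neighbours in the order of levels includes 0. With no filter on low counts LAMB1 passed edgeR's test in AT1R Tg vehicle against WT (adjusted p 0.00128). That setting called 774 genes in all, against 10 in the main fit. Across the alternatives that did not leave out a single library, its adjusted p by edgeR, DESeq2 or limma-voom ran from 0.00113 to 0.814. It was under 0.05 in 2 of these settings. The log2 fold change of LAMB1 in this comparison stayed between 0.77 and 1.13 under every alternative run.

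Within the beta chains, LAMB1 made up 2.66% (exact Clopper-Pearson 95% interval 2.36% to 2.98%) and 3.05% (2.72% to 3.40%) of the LAMB1 and LAMB2 counts in AT1R Tg AC1903. The share was 4.08% (3.75% to 4.42%) and 5.51% (5.07% to 5.98%) in AT1R Tg vehicle, against 2.23% (2.07% to 2.41%) and 1.88% (1.74% to 2.02%) in WT. The groups did not overlap, and the intervals cover counting error only. The share mixes 2 gene lengths, so its size is not a molar share, but the lengths are the same in every library. Against its partner LAMC1, with the WT mean set to 0, LAMB1 was at 0.10 and 0.37 on the log2 scale in AT1R Tg AC1903, 1.28 and 1.26 in AT1R Tg vehicle, against 0.15 and -0.15 in WT. Here AT1R Tg AC1903 replicate 1 lay within the range of WT.

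NID1 encodes nidogen, which binds laminin and type IV collagen. It was at 51.8 and 81.9 CPM in AT1R Tg AC1903, 83.9 and 56.1 CPM in AT1R Tg vehicle and 58.2 and 48.4 CPM in WT. The spread within the AT1R Tg groups was wider than any difference between groups, and no comparison passed edgeR's test (adjusted p 0.627 to 0.954).

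AGRN encodes agrin, the main heparan sulfate proteoglycan of the mature glomerular basement membrane. It was at 326 and 320 CPM in AT1R Tg AC1903, 291 and 264 CPM in AT1R Tg vehicle and 366 and 358 CPM in WT. The 3 groups did not overlap, with WT highest and AT1R Tg vehicle lowest. The log2 fold change was -0.38 ± 0.16 (SE) in AT1R Tg vehicle against WT (unadjusted p 0.0424, edgeR adjusted p 0.389) and 0.22 ± 0.16 in AT1R Tg AC1903 against AT1R Tg vehicle (edgeR adjusted p 0.708). HSPG2 encodes perlecan, a proteoglycan more abundant in the mesangial matrix. It was at 77.9 and 74.1 CPM in AT1R Tg AC1903, 94.9 and 65.5 CPM in AT1R Tg vehicle and 62.4 and 64.4 CPM in WT. All 4 AT1R Tg libraries were above both WT libraries, with a log2 fold change in AT1R Tg vehicle against WT of 0.34 (95% interval -0.10 to 0.78, edgeR adjusted p 0.554). Both AT1R Tg AC1903 libraries lay within the range of AT1R Tg vehicle (log2 fold change -0.08, edgeR adjusted p 0.925).

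Counted over the 11 IDs, none passed edgeR's test in AT1R Tg vehicle against WT, where 0.0745% of the 13426 genes tested did. At an unadjusted p under 0.05 there were 2, LAMB1 and AGRN, beside 11.9% of all genes. DESeq2 called LAMB1 alone, beside 4.25% of genes, limma-voom called none, beside 0.0521%, and the authors' deposited table called LAMB1 alone, beside 4.42% of the genes listed. The groups did not overlap for 6 of the 11, against 44% of all genes. LAMB1 and HSPG2 were higher, where 20.6% of all genes were higher without overlap, and LAMB2, LAMA5, LAMC1 and AGRN were lower, where 23.4% were lower. The median log2 fold change was 0.07 over the 11 IDs and -0.03 over all genes.

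In AT1R Tg AC1903 against AT1R Tg vehicle edgeR called 0 of the 11 and 0% of all genes. At an unadjusted p under 0.05 there was 1 of the 11, LAMB1, beside 8.12% of all genes. DESeq2 called none of the 11, beside 0.499% of genes, limma-voom called none of the 11 and 0% of genes, and the authors' deposited table called none of the 11, beside 0.378%. The groups did not overlap for 4 of the 11, against 38.3% of all genes. LAMA5, LAMC1 and AGRN were higher, where 19.9% of all genes were higher without overlap, and LAMB1 was lower, where 18.4% were lower. The median log2 fold change was 0.05 over the 11 IDs and -0.02 over all genes.

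In AT1R Tg AC1903 against WT edgeR called 0 of the 11 and 0.0372% of all genes, DESeq2 called 0 of the 11 and 1.35% of genes, and limma-voom called 0 of the 11 and 0.0521%. No member had an unadjusted p under 0.05, beside 11.1% of all genes. The groups did not overlap for 8 of the 11, against 47.7% of all genes. Both COL4A3 IDs, COL4A1, COL4A2, LAMB1 and HSPG2 were higher, where 24.2% of all genes were higher without overlap, and LAMB2 and AGRN were lower, where 23.5% were lower. Apart from LAMB1, all intervals of the members spanned 0 except that of AGRN in AT1R Tg vehicle against WT.

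**Figure D2:**
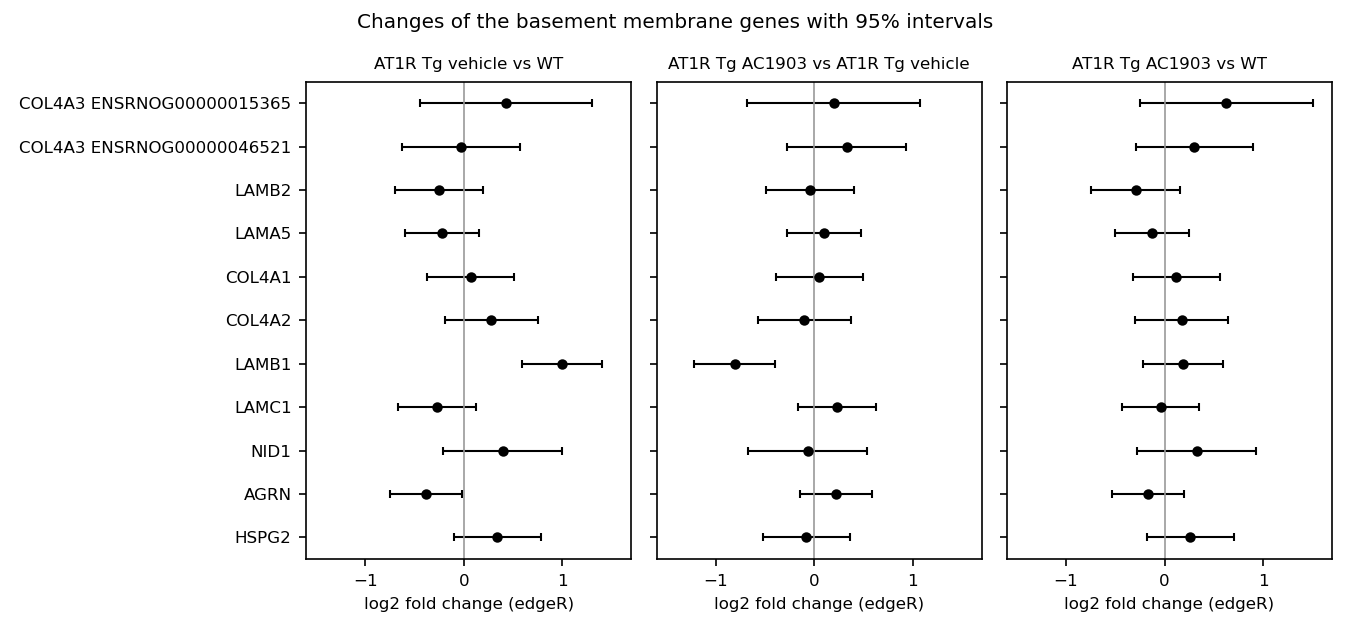
Log2 fold change (x axes, edgeR) of each basement membrane gene in the 3 comparisons, with bars for 95% intervals not adjusted for the number of genes. LAMB1 stands at 0.99 in AT1R Tg vehicle vs WT and at -0.81 in AT1R Tg AC1903 vs AT1R Tg vehicle, and besides it only the AGRN interval in AT1R Tg vehicle vs WT leaves out 0.

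The mature chains COL4A3, LAMB2 and LAMA5 were set against COL4A1, COL4A2 and LAMB1 within each library, as the mean log2 CPM of the mature chains minus that of the early chains, with the COL4A3 IDs summed. Relative to the WT mean the difference was -0.11 and -0.06 in AT1R Tg AC1903, -0.38 and -0.57 in AT1R Tg vehicle, against 0.06 and -0.06 in WT. Both AT1R Tg vehicle libraries were below all others, and AT1R Tg AC1903 lay just below WT. The group means differed by -0.48 in AT1R Tg vehicle against WT, by 0.39 in AT1R Tg AC1903 against AT1R Tg vehicle and by -0.09 in AT1R Tg AC1903 against WT. In AT1R Tg vehicle against WT the mean of the mature chains differed by -0.04 and that of the early chains by 0.44. In AT1R Tg AC1903 against AT1R Tg vehicle these means differed by 0.11 and -0.27. No test was made of this score, and 2 libraries against 2 allow no permutation p below 0.333.

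The difference was smaller without LAMB1. Without it the score was -0.13 and -0.02 in AT1R Tg AC1903, -0.20 and -0.19 in AT1R Tg vehicle, against 0.08 and -0.08 in WT. The AT1R Tg vehicle libraries were still the lowest, at -0.20 against WT. LAMB2 minus LAMB1 was at -0.39 and -0.59 in AT1R Tg AC1903, -1.02 and -1.48 in AT1R Tg vehicle, against -0.13 and 0.13 in WT. The 3 groups did not overlap on this measure, and AT1R Tg AC1903 lay between the others.

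For the collagen chains alone both AT1R Tg group means lay above that of WT, with overlap. COL4A3 minus the mean of COL4A1 and COL4A2 was at 0.29 and 0.72 in AT1R Tg AC1903, 0.49 and -0.08 in AT1R Tg vehicle, against 0.35 and -0.35 in WT. The group means relative to WT were 0.50 in AT1R Tg AC1903 and 0.21 in AT1R Tg vehicle, and the range of every group overlapped the others.

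**Figure D3:**
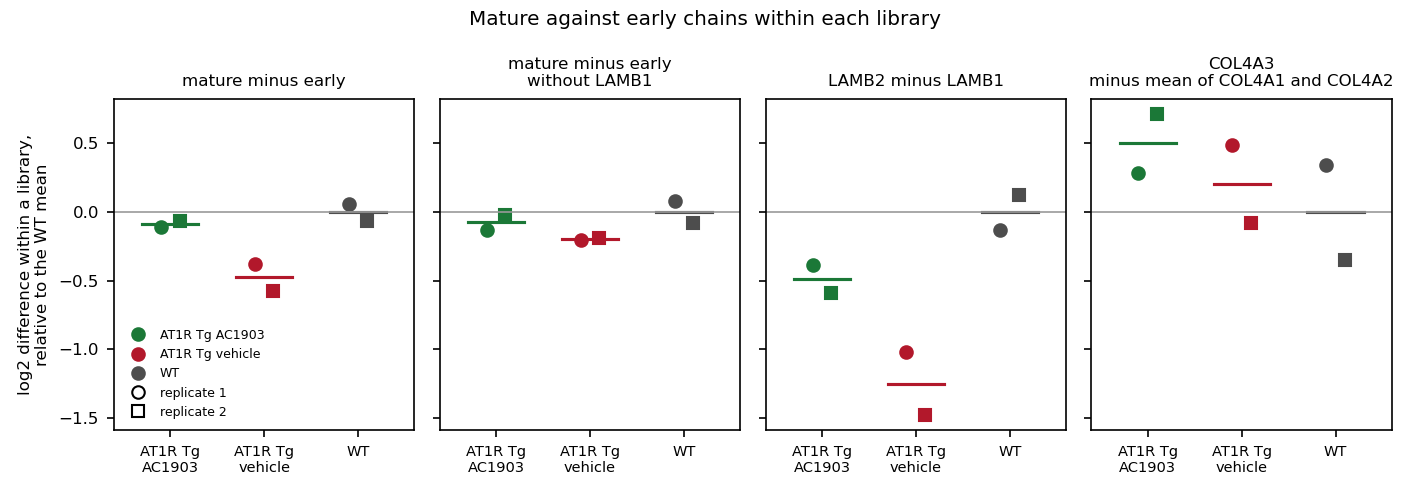
Log2 difference between sets of chains within each library, relative to the WT mean (y axis), for AT1R Tg AC1903, AT1R Tg vehicle and WT, with circles for replicate 1, squares for replicate 2 and bars for group means. The mean of AT1R Tg vehicle is -0.48 for mature minus early chains and -0.20 without LAMB1, while the groups overlap for COL4A3 against COL4A1 and COL4A2.

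The summed levels of proximal tubule markers and of fibroblast markers were higher in all 4 AT1R Tg libraries than in WT, and their part in the LAMB1 result was not tested. The summed CPM of 13 proximal tubule markers was 5718 and 5664 in AT1R Tg AC1903, 5577 and 10810 in AT1R Tg vehicle, against 3848 and 2400 in WT. DESeq2 called 11 of the 13 higher in AT1R Tg vehicle against WT, beside 4.25% of all genes called. EdgeR called 0 of the 13, beside 0.0745% of all genes. All 13 were higher there without overlap, where 20.6% of all genes were. In AT1R Tg AC1903 against WT DESeq2 called 2 of the 13, beside 1.35% of all genes, and 12 were higher without overlap, beside 24.2%. The sum of 5 fibroblast markers, mostly COL1A1, was 155 and 146 CPM in AT1R Tg AC1903, 407 and 168 CPM in AT1R Tg vehicle and 75.0 and 75.6 CPM in WT. COL1A1 alone was at 136 and 121 CPM in AT1R Tg AC1903, 368 and 131 CPM in AT1R Tg vehicle and 47.1 and 48.3 CPM in WT. The other fibroblast markers did not share this pattern, since COL1A2, COL3A1 and DCN were lower in both AT1R Tg AC1903 libraries than in WT and PDGFRA overlapped. The median log2 fold change of the 5 was -0.54 in AT1R Tg AC1903 against WT and 1.02 in AT1R Tg vehicle against WT. The sum of 6 markers of parietal epithelium, the lining of Bowman's capsule, was 207 and 225 CPM in AT1R Tg AC1903, 285 and 178 CPM in AT1R Tg vehicle and 146 and 204 CPM in WT. All 6 parietal markers had a log2 fold change above 0 in AT1R Tg vehicle against WT (median 0.77). DESeq2 called 1 of them there, beside 4.25% of all genes, and edgeR 0, beside 0.0745%. In AT1R Tg AC1903 against WT 5 were above 0 and 1 below (median 0.40). PAX8 was at 26.8 and 35.97 CPM in AT1R Tg AC1903 and 37.0 and 44.1 CPM in AT1R Tg vehicle. In WT it was at 21.3 and 25.2 CPM, and PAX8 alone of the 6 kept the order of LAMB1 without overlap. The part of parietal cells in the LAMB1 result was not tested. No marker of these lists was at 0 in any library.

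The fibroblast sum put the 3 groups in the same order as LAMB1 without overlap, although none of its 5 markers did so alone, and the other sums did not. AT1R Tg vehicle replicate 1 had a proximal tubule sum (5577 CPM) like that of both AT1R Tg AC1903 libraries, and its LAMB1 level was 39.6 CPM against their 23.4 and 24.9 CPM. AT1R Tg vehicle replicate 2 had a fibroblast sum (168 CPM) close to theirs and a LAMB1 level of 44.8 CPM. Divided by the proximal tubule sum, with the WT mean set to 0, LAMB1 was at -0.77 and -0.66 on the log2 scale in AT1R Tg AC1903, 0.03 and -0.75 in AT1R Tg vehicle, against -0.20 and 0.20 in WT. Divided by the fibroblast sum it was at -0.89 and -0.72 in AT1R Tg AC1903, -1.53 and -0.07 in AT1R Tg vehicle, against 0.14 and -0.14 in WT. AT1R Tg vehicle was thus not above WT in both libraries on either scale. Divided by the parietal sum, LAMB1 was at -0.12 and -0.15 in AT1R Tg AC1903 and 0.37 and -0.37 in WT. In AT1R Tg vehicle it was at 0.18, within the range of WT, and 1.04. Divided by the endothelial sum LAMB1 was at 0.01 and 0.57 in AT1R Tg AC1903, 1.39 and 1.36 in AT1R Tg vehicle, against 0.15 and -0.15 in WT. Both AT1R Tg vehicle libraries were the highest on that scale. The same held for the podocyte sum (0.69 and 1.78) and the mesangial and smooth muscle sum (1.00 and 1.52). On those scales AT1R Tg AC1903 replicate 1 was next, at 0.60 and 0.75. It also held for the macrophage sum (1.34 and 1.17) and the sum of the loop, distal tubule and collecting duct (0.84 and 0.99). No test was made on any of these scales.

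**Figure D4:**
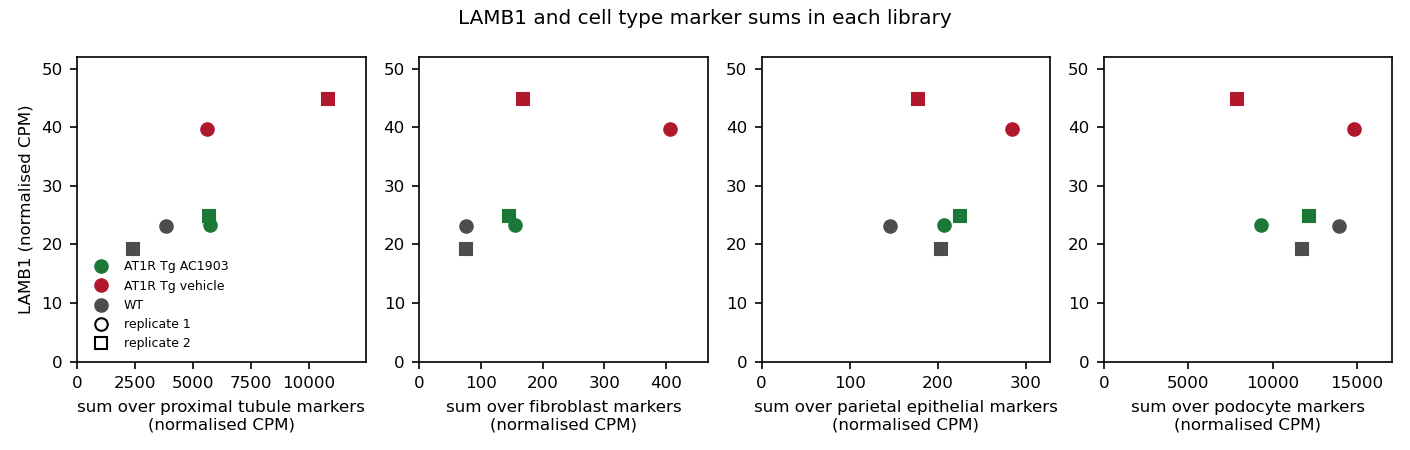
LAMB1 level (y axis, normalised CPM) against the summed level of proximal tubule, fibroblast, parietal epithelial and podocyte markers (x axes, normalised CPM) in the AT1R Tg AC1903, AT1R Tg vehicle and WT libraries. In the proximal tubule panel AT1R Tg AC1903 (5718 and 5664 CPM) and AT1R Tg vehicle replicate 1 (5577 CPM) share nearly the same sum while LAMB1 is 23.4 and 24.9 CPM against 39.6 CPM.

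In none of the other lists was the sum in both AT1R Tg vehicle libraries above, or in both below, that of all 4 others. The 12 glomerular endothelial markers summed to 8038 and 5792 CPM in AT1R Tg AC1903, 5210 and 6026 CPM in AT1R Tg vehicle and 7242 and 7361 CPM in WT. In AT1R Tg vehicle against WT 10 of the 12 were lower and 1 higher without overlap (median log2 fold change -0.35). Over all genes 23.4% were lower and 20.6% higher without overlap. Of the 14 podocyte markers 12 were below 0 in that comparison and 2 above (median -0.22). The part of these cells in the levels of the members was not tested. The 8 mesangial and smooth muscle markers summed to 564 and 618 CPM in AT1R Tg AC1903, 803 and 637 CPM in AT1R Tg vehicle and 819 and 903 CPM in WT. That sum was lower in all 4 AT1R Tg libraries than in WT, but its markers were mixed, with log2 fold changes in AT1R Tg vehicle against WT above 0 for 3 of the 8 and below 0 for 5. TAGLN, a smooth muscle marker, was at 36.5 and 21.8 CPM in AT1R Tg AC1903, 107 and 33.9 CPM in AT1R Tg vehicle and 29.1 and 38.5 CPM in WT. Only replicate 1 of AT1R Tg vehicle was above the range of WT. ITGA8 and DES of the same list were lower in all 4 AT1R Tg libraries than in WT. ITGA8 was at 289 and 304 CPM in AT1R Tg AC1903, 322 and 295 CPM in AT1R Tg vehicle and 389 and 387 CPM in WT. DES was at 88.3 and 74.3 CPM in AT1R Tg AC1903, 118 and 111 CPM in AT1R Tg vehicle and 168 and 231 CPM in WT. The 10 macrophage markers summed to 172 and 255 CPM in AT1R Tg AC1903, 102 and 130 CPM in AT1R Tg vehicle and 108 and 177 CPM in WT. The 10 markers of the loop, the distal tubule and the collecting duct summed to 670 and 635 CPM in AT1R Tg AC1903, 471 and 480 CPM in AT1R Tg vehicle and 475 and 424 CPM in WT.

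Other genes that build, bind or degrade the basement membrane were read from 4 lists with 76 symbols, of which 61 were matched to 62 gene IDs. The chain COL4A4, the partner of COL4A3, is among the symbols not analysed here. EdgeR called none of the 62 in any comparison, and its unadjusted p was under 0.05 for 14 in AT1R Tg vehicle against WT, 2 in AT1R Tg AC1903 against AT1R Tg vehicle, while 13 passed that mark in AT1R Tg AC1903 against WT. Over all genes that mark was passed by 11.9%, 8.12% and 11.1% in these comparisons. Limma-voom called none of the 62 either. DESeq2 called 5 higher and 3 lower in AT1R Tg vehicle against WT, 0 in AT1R Tg AC1903 against AT1R Tg vehicle, and 4 higher and 3 lower in AT1R Tg AC1903 against WT. It called 4.25%, 0.499% and 1.35% of all genes. The median log2 fold change over the 62 was -0.08, -0.04 and -0.01 in these comparisons, beside -0.03, -0.02 and 0.00 over all genes.

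Among 18 other basement membrane chains, DESeq2 called COL4A6 and LAMA1 higher and SPON1 lower in both AT1R Tg groups against WT. COL4A6, a chain of the type IV collagen of Bowman's capsule and tubules, was at 20.05 and 21.98 CPM in AT1R Tg AC1903, 31.0 and 14.3 CPM in AT1R Tg vehicle and 7.36 and 6.10 CPM in WT. All 4 AT1R Tg libraries were above both WT libraries. Its log2 fold change was 1.64 ± 0.34 (SE) in AT1R Tg AC1903 against WT (DESeq2 adjusted p 0.00318, edgeR adjusted p 0.293) and 1.76 ± 0.34 in AT1R Tg vehicle against WT (DESeq2 adjusted p 0.000697, edgeR adjusted p 0.164).

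LAMA1, the alpha chain of early and tubular laminin, was at 7.15 and 10.7 CPM in AT1R Tg AC1903, 8.63 and 13.1 CPM in AT1R Tg vehicle and 3.70 and 3.39 CPM in WT. It was higher in each AT1R Tg library than in either WT library, with DESeq2 adjusted p 0.0465 in AT1R Tg AC1903 against WT and 0.00269 in AT1R Tg vehicle against WT. SPON1, a secreted matrix protein, was at 20.2 and 21.9 CPM in AT1R Tg AC1903, 26.2 and 18.6 CPM in AT1R Tg vehicle and 41.3 and 38.7 CPM in WT (DESeq2 adjusted p 0.0240 and 0.0301 for the AT1R Tg groups against WT, edgeR adjusted p 0.308 and 0.180). COL4A6 and LAMA1 are made in tubules as well, and the sum of proximal tubule markers was higher in the same 4 libraries. Within AT1R Tg vehicle, the library with the higher proximal tubule sum (10810 against 5577 CPM) had the lower COL4A6 level and the higher LAMA1 level. The parietal sum was higher in both AT1R Tg AC1903 libraries than in WT and overlapped between AT1R Tg vehicle and WT. The part of tubular or parietal cells in these results was not tested.

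COL4A5, which joins COL4A3 in the mature network, was at 51.99 and 63.7 CPM in AT1R Tg AC1903, 68.1 and 36.4 CPM in AT1R Tg vehicle and 54.2 and 41.0 CPM in WT, with overlap between all groups. LAMA4, a laminin chain of endothelium, was at 150 and 117 CPM in AT1R Tg AC1903, 90.1 and 133 CPM in AT1R Tg vehicle and 146 and 167 CPM in WT. AT1R Tg vehicle was below WT in both libraries, by -0.48 on the log2 scale (edgeR adjusted p 0.445). LAMA3, NID2 and FRAS1, a protein of epithelial basement membranes, passed no test, with DESeq2 adjusted p from 0.166 to 0.974 over the 3 comparisons.

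Among 19 genes that process collagen and heparan sulfate, DESeq2 called HS6ST1 alone. HS6ST1, which adds sulfate to heparan sulfate chains such as those of agrin and perlecan, was at 46.0 and 44.0 CPM in AT1R Tg AC1903, 48.8 and 51.1 CPM in AT1R Tg vehicle and 25.4 and 28.2 CPM in WT. Both AT1R Tg groups were above WT without overlap, with DESeq2 adjusted p 0.0121 in AT1R Tg AC1903 against WT and 0.000391 in AT1R Tg vehicle against WT (edgeR adjusted p 0.293 and 0.145). P4HA2, a collagen prolyl hydroxylase, was at 61.3 and 64.6 CPM in AT1R Tg AC1903, 50.1 and 37.3 CPM in AT1R Tg vehicle and 68.1 and 57.9 CPM in WT. It was lowest in both AT1R Tg vehicle libraries, and its log2 fold change of 0.53 in AT1R Tg AC1903 against AT1R Tg vehicle did not pass edgeR's test (adjusted p 0.588). P4HA1 and PPIB, which also act on newly made collagen, passed no test (DESeq2 adjusted p from 0.299 to 0.916).

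Of the 13 IDs of laminin and collagen receptors, DESeq2 called DDR1 and ITGA6 higher and BCAM lower in AT1R Tg vehicle against WT. DDR1, a receptor kinase for collagen, was at 37.1 and 40.2 CPM in AT1R Tg AC1903, 58.3 and 49.7 CPM in AT1R Tg vehicle and 32.1 and 25.6 CPM in WT (DESeq2 adjusted p 0.00330 and edgeR adjusted p 0.165 for AT1R Tg vehicle against WT). The 3 groups did not overlap, and AT1R Tg vehicle was highest, the same order as for LAMB1. The log2 fold change of DDR1 was -0.48 ± 0.18 in AT1R Tg AC1903 against AT1R Tg vehicle (SE, edgeR adjusted p 0.602, DESeq2 adjusted p 0.510). ITGA6, an integrin chain that binds laminin, was at 36.5 and 33.7 CPM in AT1R Tg AC1903, 40.1 and 52.6 CPM in AT1R Tg vehicle and 30.5 and 18.7 CPM in WT, again with the 3 groups apart.

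BCAM, a receptor for the LAMA5 chain, was at 842 and 1037 CPM in AT1R Tg AC1903, 1265 and 1001 CPM in AT1R Tg vehicle and 1791 and 1962 CPM in WT. All 4 AT1R Tg libraries were below both WT libraries, with DESeq2 adjusted p 0.000266 in AT1R Tg AC1903 against WT and 0.0153 in AT1R Tg vehicle against WT (edgeR adjusted p 0.309 and 0.228). ITGA1, a collagen-binding integrin chain, was at 45.8 and 48.7 CPM in AT1R Tg AC1903, 43.8 and 41.2 CPM in AT1R Tg vehicle and 34.4 and 19.7 CPM in WT and passed no test.

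Of 12 matrix proteases and inhibitors, HPSE was called lower by DESeq2 in AT1R Tg vehicle against WT, and TIMP3 higher and MMP9 lower in AT1R Tg AC1903 against WT. HPSE, the enzyme heparanase that cuts heparan sulfate, was at 38.1 and 35.9 CPM in AT1R Tg AC1903, 34.0 and 31.7 CPM in AT1R Tg vehicle and 52.8 and 53.1 CPM in WT. MMP9, a gelatinase that also cuts type IV collagen, was at 80.9 and 85.2 CPM in AT1R Tg AC1903, 90.2 and 121 CPM in AT1R Tg vehicle and 130 and 220 CPM in WT. TIMP3, a metalloproteinase inhibitor held in the matrix, was at 193 and 204 CPM in AT1R Tg AC1903, 165 and 151 CPM in AT1R Tg vehicle and 130 and 92.2 CPM in WT. For TIMP3 and MMP9 AT1R Tg vehicle lay between the other groups without overlap, and the direct comparison of AT1R Tg AC1903 with AT1R Tg vehicle passed neither test (DESeq2 adjusted p 0.740 and 0.775).

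**Figure D5:**
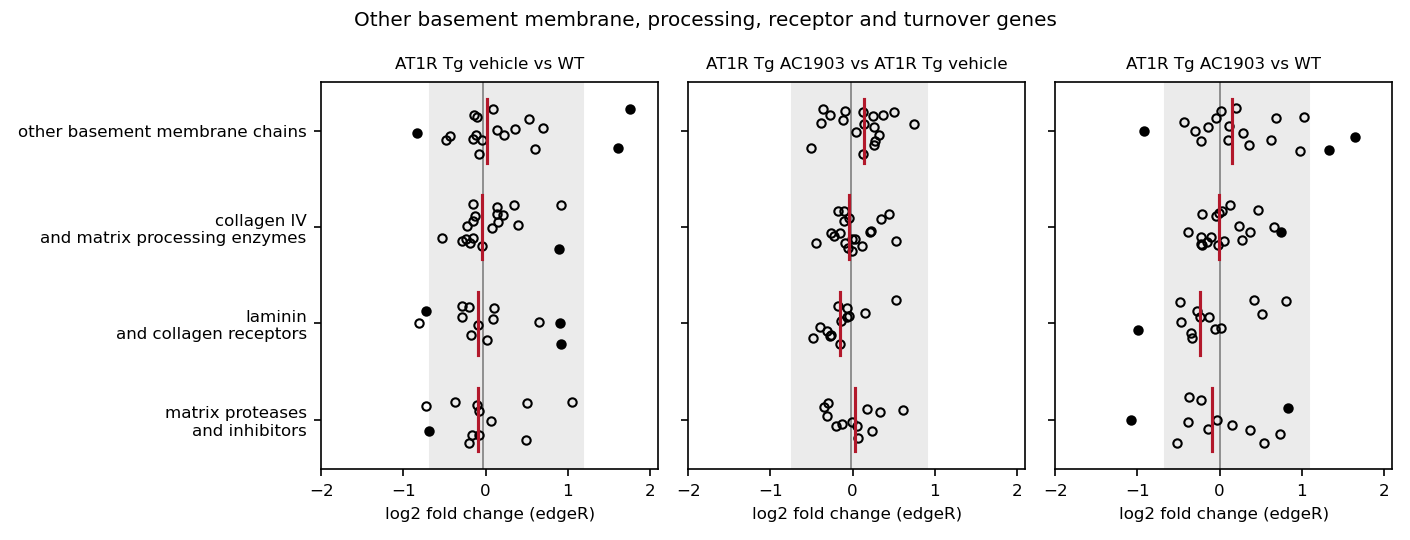
Log2 fold change (x axes, edgeR) of the other basement membrane, processing, receptor and turnover genes in the 3 comparisons, with red bars for list medians, grey bands for the central 90% of all genes and filled points for genes that DESeq2 called. DESeq2 called 8 of the 62 in AT1R Tg vehicle vs WT, 0 in AT1R Tg AC1903 vs AT1R Tg vehicle, then 7 in AT1R Tg AC1903 vs WT, while edgeR called 0 in each.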

How the data were processed

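Polyadenylated RNA was prepared with a stranded kit, per the labels' protocols. Expected counts per Ensembl gene were deposited by the authors, and the submitters' processing notes name Rnor_5.0 as build and STAR 2.5.2b and RSEM 1.3.0 as tools. Neither the annotation release nor read filters are given there. RSEM shares ambiguous reads out, so genes with common sequence are uncertain. The authors also deposited tables of log2 fold changes and adjusted p-values for AT1R Tg vehicle against WT and AC1903 against vehicle, per the file headers; their tool is not given there. Only 12321 gene IDs carry a symbol in these tables. Promoters came from RefSeq's table for GRCr8, which held 9 of the 10 members; LAMB2 was not among them.

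Counts were rounded to whole numbers and filtered by group with filterByExpr, which left 13426 genes. Library sizes were corrected with TMM (trimmed mean of M values). Genes were tested mainly by edgeR's two-sided quasi-likelihood test (edgeR 4.0.16, R 4.3.3) fitted to the 6 libraries together (3 residual degrees of freedom). Its p-values were adjusted by Benjamini-Hochberg over all genes and called under 0.05. Genes varied by 23.0% between libraries of a group (common biological coefficient of variation). Log2 CPM used a prior count of 2. DESeq2 1.42.0, limma-voom (limma 3.58.1), other scalings, no filter, fewer libraries, a replicate block and age were run as alternatives. The script was tested on simulated data. Chi-square per degree of freedom between the libraries of a group was 19.0 to 92.8, so none was a duplicate.

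The members and lists were chosen with earlier results of these data known. Every member is named. Of each further list up to 4 genes with the smallest p in any comparison are named, with the other type IV collagen and laminin chains and NID2. Of marker lists the sums and up to 3 genes are named.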

Additional observations from a re-analysis of the deposited data

How the results depend on the processing

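LAMB1 kept its direction under every alternative, and no member turned with another scaling. In AT1R Tg vehicle against WT edgeR called 10 genes, DESeq2 560, edgeR with no filter 774, and a fit of only the 2 groups, a replicate block and age as a covariate 4 each. In AT1R Tg AC1903 against AT1R Tg vehicle edgeR called 0, DESeq2 67, no filter 114, the replicate block 2 and age 1. In AT1R Tg AC1903 against WT the counts were 5, then 181 by DESeq2, 464 with no filter and 21 with only the 2 groups. Members called in AT1R Tg vehicle against WT were 1 by DESeq2 and 1 with no filter, and further list genes 8 and 9, and 7 and 8 in AT1R Tg AC1903 against WT. Leaving out each library in turn gave 1 to 511 genes (511 without AT1R Tg vehicle replicate 1), 0 to 4 and 1 to 22 genes, 0 to 1 members, and 0 to 4 and 0 to 1 list genes. The mature minus early difference ran from -0.57 to -0.38, 0.29 to 0.48 and -0.15 to -0.02. The cause of these shifts was not tested. Samples sharing a number did not deviate together (correlations -0.041, 0.0046 and -0.020), and the replicate block gave LAMB1 an adjusted p of 0.339 in AT1R Tg vehicle against WT.

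Of 498 member settings 461 kept direction and side and 22 reversed, none of them LAMB1's. With age as a covariate ENSRNOG00000046521 of COL4A3 was at 0.094 in AT1R Tg vehicle against WT and COL4A1 at -0.15 in AT1R Tg AC1903 against AT1R Tg vehicle. In the libraries of 20.4 weeks alone these were 0.15 and -0.19, and ENSRNOG00000015365 was at -0.065 in AT1R Tg AC1903 against AT1R Tg vehicle. Leaving out libraries one at a time, changes that turned in AT1R Tg vehicle against WT ran from -0.18 to 0.97 (ENSRNOG00000015365), -0.47 to 0.31 (ENSRNOG00000046521) and -0.13 to 0.25 (COL4A1). For AT1R Tg AC1903 against AT1R Tg vehicle they ran from -0.24 to 0.81 and -0.016 to 0.78 for the same IDs, -0.19 to 0.10 (LAMB2), -0.024 to 0.15 (LAMA5), -0.14 to 0.25 (COL4A1), -0.35 to 0.17 (COL4A2), -0.47 to 0.25 (NID1) and -0.33 to 0.21 (HSPG2). For AT1R Tg AC1903 against WT they ran from -0.14 to 0.040 (LAMC1) and -0.047 to 0.62 (NID1). Precision was limited by the 2 libraries of each group.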
